A study of Homo sapiens with 12 samples.

Results

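The genes described here are the 47 ubiquitin and proteasome genes among the 1676 genes in a deposited expression table of cells transfected with tau. The cells were SH-SY5Y, a human line established from a neuroblastoma. The genes were chosen by symbol: proteasome subunits (PSM), the E1 and E2 enzymes that activate and carry ubiquitin (UBA, UBE), ligases (UBE3, UBR, RNF, TRIM, FBX, CUL) and deubiquitinases (USP, OTU). All 47 are protein-coding in GENCODE release 29 (GRCh38), and no pseudogene matched the symbols. They comprise 16 proteasome genes, 6 E1 and E2 enzymes, 18 ligases and 7 deubiquitinases. RNA was measured 24 h after transfection with Tau-K174Q-S199E, which carries both substitutions, with Tau-S199E, in which glutamate replaces a serine and mimics its phosphorylation, with Tau-K174Q, in which glutamine replaces a lysine and mimics its acetylation, or with wild-type tau (Tau-WT). Each construct has 3 libraries, 12 in all, made from polyadenylated RNA with a kit that reads near the 3′ end of transcripts, and every group is transfected with some form of tau. The labels give neither the promoter of the constructs nor the share of cells that took them up, and do not say whether the libraries come from separate cultures. The p-values therefore rest on how far these libraries vary, and that variation may be technical alone.

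Ubiquitin is a small protein that cells attach to other proteins. An E1 enzyme activates it, an E2 enzyme carries it, and a ligase selects the substrate to which it is joined, while deubiquitinases remove it again. Chains of ubiquitin mark many proteins for the proteasome, whose barrel-shaped core cuts proteins inside stacked alpha and beta rings and whose regulatory particle binds, unfolds and feeds in the substrate. In neurons this route is known as one of those by which tau is removed.

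The deposited values are standardised gene by gene: over the 12 libraries every gene averages 0 with an SD of 1. Differences are therefore given in SD units of the gene and say nothing about fold size or about which gene has more RNA, and sequencing depth is unknown. A gene is said to have risen or fallen where the limma test, adjusted by Benjamini-Hochberg over all 1676 genes, gave an adjusted p under 0.05. With 3 libraries against 3, an exact permutation test of a single gene cannot go below 0.1. The table is a selection: each listed gene has a deposited adjusted p-value under 0.05 in a contrast that the header does not name. The sign of the deposited log2 fold change is that of the interaction of both substitutions in 47 of 47 genes and in all 1676. It is also that of Tau-WT minus Tau-S199E in 47 of 47 and in all 1676. Tests of Tau-S199E against Tau-WT and of the interaction are thus not independent of how the table was made. The differences of Tau-K174Q from Tau-WT and of Tau-K174Q-S199E from each single construct are parts of the interaction. Their directions and the order of the group means may therefore follow from the selection too. Tau-K174Q and Tau-S199E differed from Tau-WT with the same sign in 47 of the 47 genes and in 1675 of all 1676. Nothing can be said of ubiquitin genes outside the table. Of 429 annotated protein-coding genes with these symbols 47 are in the table, and of all 19936 protein-coding genes 1585 are (7.95%). The share is 32.7% of the proteasome symbols (16 of 49, PSMC3IP by name among them), 7.32% of the ligases and 7.69% of the deubiquitinases, and it is 6 of 43 for the E1 and E2 enzymes. In the core it is 4 of 8 alpha ring symbols and 4 of 11 beta ring symbols. The denominators count every annotated symbol, whether or not these cells express it, so the shares do not show that a class was favoured.

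Gene positions are those of GENCODE release 29 on GRCh38. Libraries are named by their numbers: 16, 17 and 18 for Tau-K174Q-S199E, 10, 11 and 12 for Tau-S199E, 4, 5 and 6 for Tau-K174Q and 1, 2 and 3 for Tau-WT. Tau-S199E library 12 stood apart, with an SD over all genes of 1.67 against 0.472 to 1.21 in the others. It was the most extreme Tau-S199E library in the direction of the construct's difference in 41 of the 47 genes (87.2%, against 85.5% of all genes). Tau-K174Q-S199E library 18 lay on the Tau-S199E side of the midpoint between Tau-S199E and Tau-WT in 39 of 47 genes (80.0% of all genes), whereas library 16 lay on the Tau-WT side in 45 (93.4% of all) and library 17 in 39 (85.0% of all). Of the markers of the cells, MAPT, which encodes tau, was the 1 of 15 sympathetic neuroblast genes in the table. It averaged 0.86 ± 1.57 SD units in Tau-K174Q-S199E, -0.66 ± 0.69 in Tau-S199E, -0.52 ± 0.043 in Tau-K174Q and 0.32 ± 0.46 in Tau-WT libraries (SD, n = 3 each), and a 3′ read may not see the construct. Of 16 mesenchymal neuroblastoma markers, 3 are in the table (CD44, S100A6 and SNAI2), and all 3 rose in Tau-S199E against Tau-WT, where 48.3% of all genes rose. The mean of these 3 markers was -0.39 in Tau-K174Q-S199E (libraries -0.999 to 0.67), 1.04 in Tau-S199E (0.64 to 1.83), 0.38 in Tau-K174Q (0.28 to 0.49) and -1.04 in Tau-WT (-1.32 to -0.76). Of 4 fibroblast markers LUM is listed, and it rose as well. None of 3 immune markers is listed, and absence from a table of selected genes says nothing of a gene's level. The part of these markers and of library 12 in the results on ubiquitin genes was not tested.

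**Figure D1:**
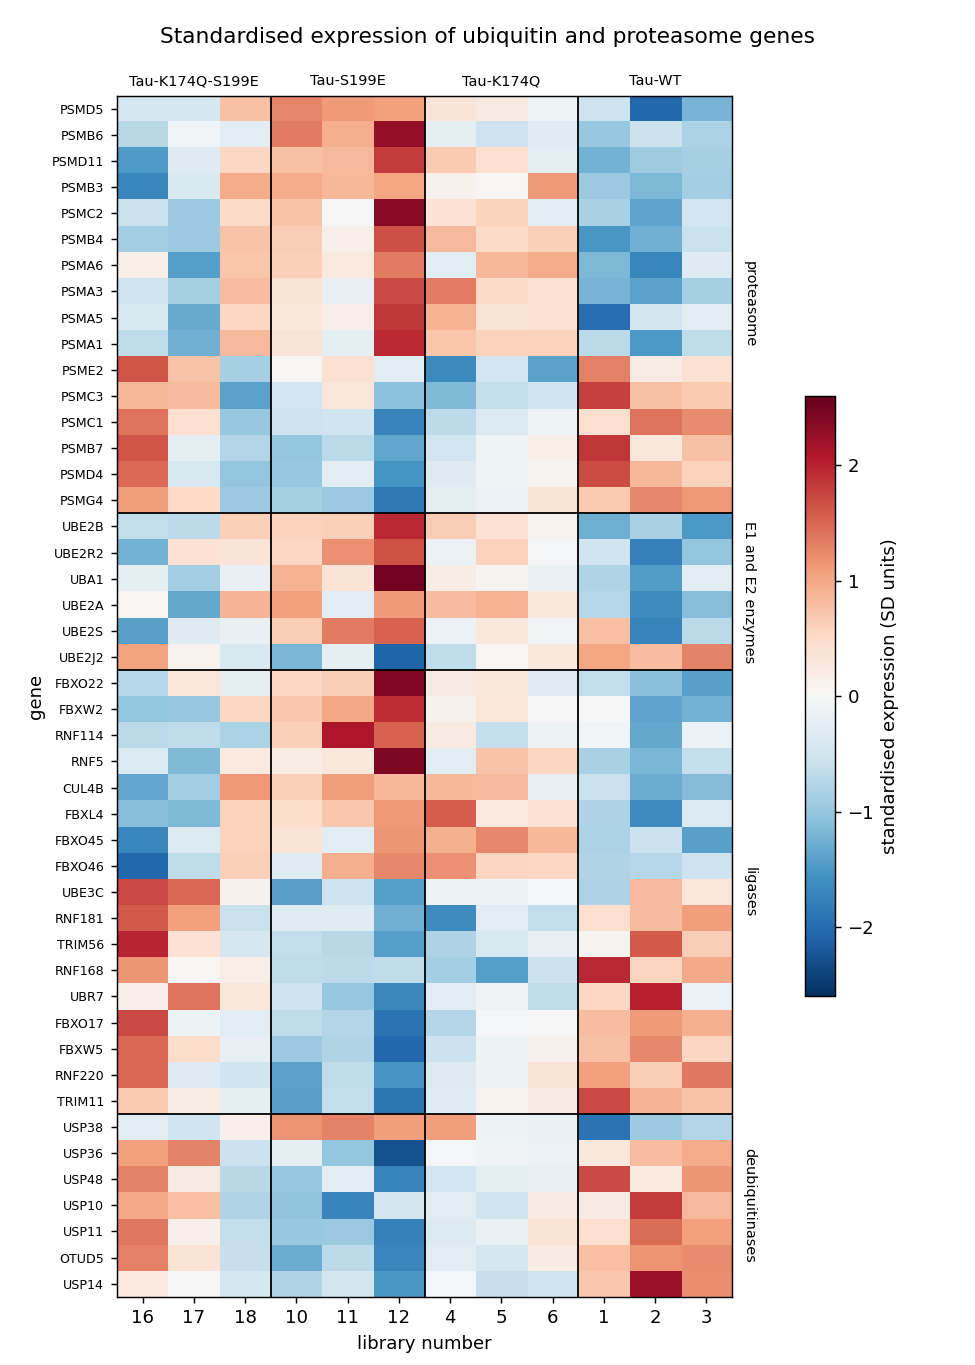
Standardised expression (colour, SD units) of 46 of the 47 genes (rows, grouped by class) in the 12 libraries (columns, grouped by tau construct). Tau-S199E library 12 holds the deepest colours, Tau-K174Q libraries are pale, and Tau-K174Q-S199E library 18 often has the colour of the Tau-S199E libraries while libraries 16 and 17 often have that of Tau-WT.

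With Tau-S199E against Tau-WT, the ubiquitin and proteasome genes moved in both directions. Of the 47 genes, 22 rose and 19 fell. The 41 called are 87.2%, where 90.0% of all genes in the table were called, 48.3% higher and 41.8% lower, so the share called is near the background. The median difference was 1.31 SD units in the 47 genes and 1.41 over all genes, but 24 differences were positive and 23 negative, and the median was 0.029 in the 38 genes without a processed pseudogene of their name. The median absolute difference was 1.96 in the 47 genes and 1.99 over all genes. The 6 genes that missed the threshold are PSMC3, PSME2, FBXO45, FBXO46, RNF181 and UBE3C. Libraries of Tau-S199E and Tau-WT did not overlap in 44 of 47 genes (93.6%, against 94.2% of all genes). Without library 12 the count of calls was 22 (46.8%, against 49.7% of all genes) and without Tau-WT library 2 it was 25 (53.2%, against 63.0% of all). No difference changed sign, but leaving out a library cannot change the sign in the 44 genes without overlap. In bulk RNA, fewer cells of a type and less RNA per cell cannot be told apart.

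**Figure D2:**
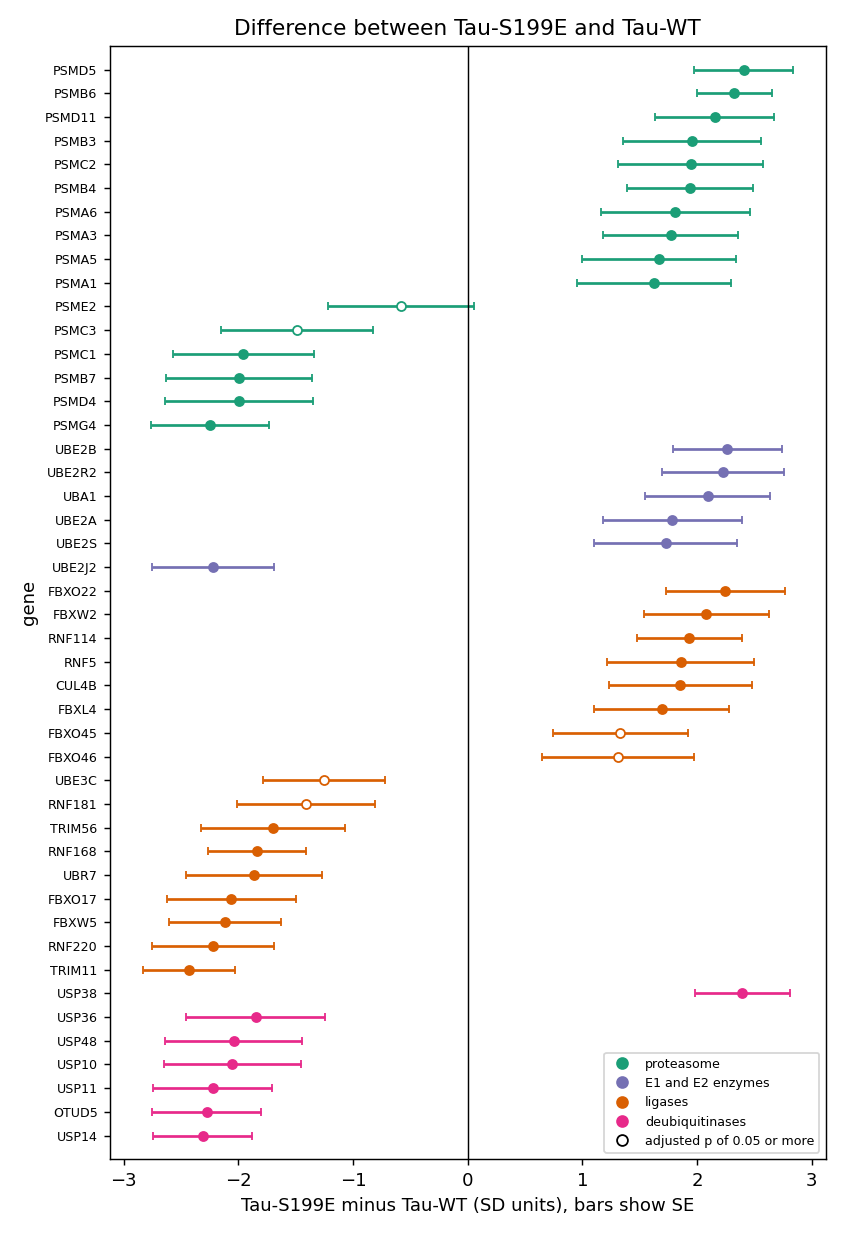
Difference between Tau-S199E and Tau-WT (x axis, SD units, bars show SE of the limma fit) for 46 of the 47 genes (y axis), coloured by class; open symbols have an adjusted p of 0.05 or more. Proteasome genes and E1 and E2 enzymes lie mostly right of 0, and 6 of 7 deubiquitinases lie left of it.

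The proteasome genes mostly rose with Tau-S199E. Of 16 genes 10 rose, PSMA1, PSMA3, PSMA5, PSMA6, PSMB3, PSMB4, PSMB6, PSMC2, PSMD5 and PSMD11, and 4 fell, PSMB7, PSMC1, PSMD4 and PSMG4. The share that rose was 62.5%, where 48.3% of all genes rose, and the median difference was 1.72 SD units. Of the 8 genes of the core rings 7 rose and 1 fell. The count of 14 calls was 4 without library 12, 7 without Tau-WT library 2 and 8 without Tau-WT library 1, where 49.7%, 63.0% and 69.9% of all genes were called in that order.

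The sequences shown next are the 250 bases before the start of 3 proteasome genes described in full, namely PSMA5 of the alpha ring, PSMD5, which helps to assemble the regulatory particle, and PSMG4, which helps to assemble the core; the first and second rose and the third fell. The start is that of RefSeq, and it can differ from the GENCODE bounds given for a gene: the stretch of PSMG4 lies wholly within those bounds and that of PSMD5 in part. The sequences come from RefSeq, build GRCh38.p14, 5′ to 3′ on the gene's strand: PSMA5 at chr1:109426449-109426698 (minus strand), PSMD5 at chr9:120842923-120843172 (minus strand) and PSMG4 at chr6:3258697-3258946 (plus strand). Capitals mark the CCAAT box, the GC box, which is GGGCGG or, read on the opposite strand, CCGCCC, and TGACNNNGC (the core of the antioxidant response element, to which the transcription factors NFE2L1 and NFE2L2 bind).
PSMA5: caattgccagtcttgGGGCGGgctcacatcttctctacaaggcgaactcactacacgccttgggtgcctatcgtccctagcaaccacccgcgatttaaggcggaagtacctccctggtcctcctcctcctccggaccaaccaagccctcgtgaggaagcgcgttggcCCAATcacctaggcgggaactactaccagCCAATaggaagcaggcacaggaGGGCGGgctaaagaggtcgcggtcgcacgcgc
PSMD5: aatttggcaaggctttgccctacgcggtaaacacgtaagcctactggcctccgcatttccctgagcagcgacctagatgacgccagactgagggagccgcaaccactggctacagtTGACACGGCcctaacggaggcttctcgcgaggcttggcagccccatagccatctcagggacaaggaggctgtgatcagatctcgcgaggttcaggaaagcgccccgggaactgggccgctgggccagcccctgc
PSMG4: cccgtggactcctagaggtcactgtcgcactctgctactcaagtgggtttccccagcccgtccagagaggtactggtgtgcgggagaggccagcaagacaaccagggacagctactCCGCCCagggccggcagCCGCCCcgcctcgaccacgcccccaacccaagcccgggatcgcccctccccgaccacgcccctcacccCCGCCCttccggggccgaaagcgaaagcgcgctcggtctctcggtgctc
The PSMA5 stretch holds 2 CCAAT boxes and 2 GC boxes, that of PSMD5 holds 1 TGACNNNGC match, and that of PSMG4 holds 3 GC boxes. Of the 47 genes, 39 had a RefSeq promoter window, which runs from 250 bases before to 50 bases after the start. USP48, TRIM11, PSMB7, PSMD4, FBXO22, PSMB6 and UBE2B were among the 8 that had none. In the shares that follow, the 39 are counted by gene, with a match in any window of the gene. All 35116 windows are counted by window, whether or not the gene is in the expression table. These shares are not like for like, so a higher share among the 39 does not show enrichment. Searched on both strands, TGACNNNGC was found for 23.1% of the 39 genes and in 13.3% of all 35116 windows. Among proteasome genes it was in PSMB3, PSMD5 and PSME2, the last of which did not pass the test. The CCAAT box was found for 46.2% of the 39 genes and in 34.6% of all windows, and the GC box for 74.4% of the 39 genes and in 45% of all windows. The E box CACGTG was in 12.8% and 7.26%, and the motif of the transcription factor NRF1 in 23.1% and 5.78%, with PSMA6 and PSMB4 among the proteasome genes. A match is a description of these letters and not evidence of binding.

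All 4 alpha ring genes of the table rose with Tau-S199E, by 1.62 (PSMA1), 1.77 (PSMA3), 1.67 (PSMA5) and 1.81 SD units (PSMA6). The authors' deposited table puts all 4 in its cluster 3, which holds 353 of all 1676 genes. Alpha subunits form the outer rings of the core and the gate through which substrates enter. PSMA5 (chr1:109399031-109426427) was at -0.40, -1.31 and 0.53 SD units in the Tau-K174Q-S199E libraries, 0.28, 0.14 and 1.85 in the Tau-S199E libraries, 0.91, 0.36 and 0.38 in the Tau-K174Q libraries and -1.98, -0.48 and -0.28 in the Tau-WT libraries. The Tau-S199E and Tau-WT libraries of PSMA5 did not overlap, with library 12 far above libraries 10 and 11 and Tau-WT library 1 far below libraries 2 and 3. PSMA5 rose by 1.67 ± 0.67 SD units (SE, adjusted p = 0.0432), and its log2 fold change in the authors' deposited table, -2.31, is the largest in size among the proteasome genes. Its rise was 1.12 SD units without library 12 and 1.14 without Tau-WT library 1. PSMA3 stood at -0.52, -0.87 and 0.79 SD units in the Tau-K174Q-S199E libraries, 0.35, -0.21 and 1.72 in the Tau-S199E libraries, 1.32, 0.50 and 0.37 in the Tau-K174Q libraries and -1.20, -1.38 and -0.87 in the Tau-WT libraries. For PSMA3, chosen for display after its values were seen, the Tau-K174Q libraries lay within the range of those of Tau-S199E, above Tau-WT. Without library 12 none of the 4 alpha ring genes passed the test, nor without Tau-WT library 1 or 2, and PSMA5 had an adjusted p between 0.0541 and 0.144 in 8 of the 12 fits that left out a library. PSMA3 and PSMA6 have processed pseudogenes named after them (1 and 4), whose reads the authors' counting could have shared. The 3′ ends of PSMA1 and PSMA6 overlap AC018523.2 and AL121594.1, respectively, on the same strand, and neither of these is in the table.

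Of the beta ring genes, PSMB3, PSMB4 and PSMB6 rose and PSMB7 fell. PSMB6 and PSMB7 both encode subunits with an active site, of caspase-like and trypsin-like activity, and PSMB3 and PSMB4 encode subunits without one. PSMB6 (chr17:4796144-4798503) was at -0.71, -0.08 and -0.29 SD units in the Tau-K174Q-S199E libraries, 1.36, 0.95 and 2.28 in the Tau-S199E libraries, -0.26, -0.54 and -0.31 in the Tau-K174Q libraries and -0.99, -0.57 and -0.83 in the Tau-WT libraries. PSMB6 was high in all 3 Tau-S199E libraries and below 0 in the other 9, without overlap. It rose by 2.33 ± 0.33 SD units (SE, adjusted p = 0.00868), the smallest adjusted p of the 47 genes. PSMB7 was at 1.63, -0.26 and -0.75 SD units in the Tau-K174Q-S199E libraries, -1.01, -0.69 and -1.36 in the Tau-S199E libraries, -0.50, -0.11 and 0.15 in the Tau-K174Q libraries and 1.85, 0.30 and 0.76 in the Tau-WT libraries. PSMB7, shown after its values were seen because it fell, was below every Tau-WT library in all 3 Tau-S199E libraries. Its difference was -1.99 ± 0.64 SD units (SE, adjusted p = 0.0217), and it missed the threshold without library 12 and without Tau-WT library 1. PSMB3 rose by 1.95 ± 0.60 SD units (SE, adjusted p = 0.0192), and PSMB4 rose by 1.94 ± 0.55 SD units (SE, adjusted p = 0.0157). Both calls were lost without library 12, and that of PSMB3 also without Tau-WT library 2. PSMB3 and PSMB7 each have 1 processed pseudogene named after them.

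Of the 6 genes grouped by symbol (PSMC and PSMD) with the regulatory particle, PSMD5 among them, 3 rose and 2 fell. Of all genes 48.3% rose and 41.8% fell. PSMD5 is a chaperone of the assembling particle and is not found in the finished proteasome. PSMD5 (chr9:120815496-120842984) was at -0.43, -0.43 and 0.76 SD units in the Tau-K174Q-S199E libraries, 1.27, 1.10 and 1.06 in the Tau-S199E libraries, 0.34, 0.23 and -0.10 in the Tau-K174Q libraries and -0.54, -2.04 and -1.21 in the Tau-WT libraries. PSMD5 was above 1 in all 3 Tau-S199E libraries and below 0 in all 3 Tau-WT libraries, and library 12 was its lowest Tau-S199E library. It rose by 2.41 ± 0.43 SD units (SE, adjusted p = 0.00968). PSMD11 is a scaffold subunit of the lid, known for its role in assembling the proteasome. PSMD11 (chr17:32444261-32483318) was measured at -1.47, -0.33 and 0.53 SD units in the Tau-K174Q-S199E libraries, 0.76, 0.85 and 1.82 in the Tau-S199E libraries, 0.67, 0.43 and -0.25 in the Tau-K174Q libraries and -1.24, -0.93 and -0.85 in the Tau-WT libraries. The Tau-S199E libraries of PSMD11 lay above those of all other constructs. PSMD11 rose by 2.15 ± 0.52 SD units (SE, adjusted p = 0.011), and its log2 fold change in the authors' deposited table was -2.09. PSMD4, a receptor for ubiquitin chains, fell by 1.99 ± 0.64 SD units (SE, adjusted p = 0.0223), and 1 processed pseudogene is named after it.

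PSMC1, PSMC2 and PSMC3 encode ATPases of the ring that unfolds substrates, and they did not move together. PSMC2 rose by 1.94 ± 0.63 SD units (SE, adjusted p = 0.0228). PSMC1 fell by 1.96 ± 0.61 SD units (SE, adjusted p = 0.0205), and PSMC3 was at -1.49 ± 0.66 SD units (SE, adjusted p = 0.0587), short of the threshold. PSMC1 has 13 processed pseudogenes named after it, and its 3′ end overlaps that of NRDE2 on the opposite strand, which rose by 2.24 SD units while PSMC1 fell. Because the strand used in counting is not given in the sources used here, reads of PSMC1 and NRDE2 cannot be told apart with certainty. Without library 12 the calls of PSMC1, PSMC2 and PSMD4 were lost, as were those of PSMC1 and PSMC2 without Tau-WT library 2, of PSMC1 without Tau-WT library 3 and of PSMD4 without Tau-WT library 1.

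Outside the core and the regulatory particle, PSMG4 fell and PSME2 did not pass the test. PSMG4 encodes a chaperone of core assembly. PSMG4 (chr6:3231403-3303373) was at 1.10, 0.52 and -0.95 SD units in the Tau-K174Q-S199E libraries, -0.86, -0.96 and -1.86 in the Tau-S199E libraries, -0.25, -0.16 and 0.35 in the Tau-K174Q libraries and 0.68, 1.25 and 1.13 in the Tau-WT libraries. The 3 Tau-S199E libraries of PSMG4 lay below all 3 Tau-WT libraries. It fell by 2.25 ± 0.52 SD units (SE, adjusted p = 0.0104). PSME2 encodes a subunit of an interferon-induced activator of the core. PSME2 stood at 1.63, 0.73 and -0.86 SD units in the Tau-K174Q-S199E libraries, 0.04, 0.39 and -0.28 in the Tau-S199E libraries, -1.65, -0.50 and -1.40 in the Tau-K174Q libraries and 1.30, 0.19 and 0.40 in the Tau-WT libraries. The Tau-S199E libraries of PSME2 overlapped those of Tau-WT, with a difference of -0.58 ± 0.64 SD units (SE, adjusted p = 0.385), whereas its Tau-K174Q libraries were its lowest group and did not overlap Tau-WT. PSME2 has 2 processed pseudogenes named after it, and its 3′ end overlaps MIR7703 on the same strand, a gene that is not in the table.

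**Figure D3:**
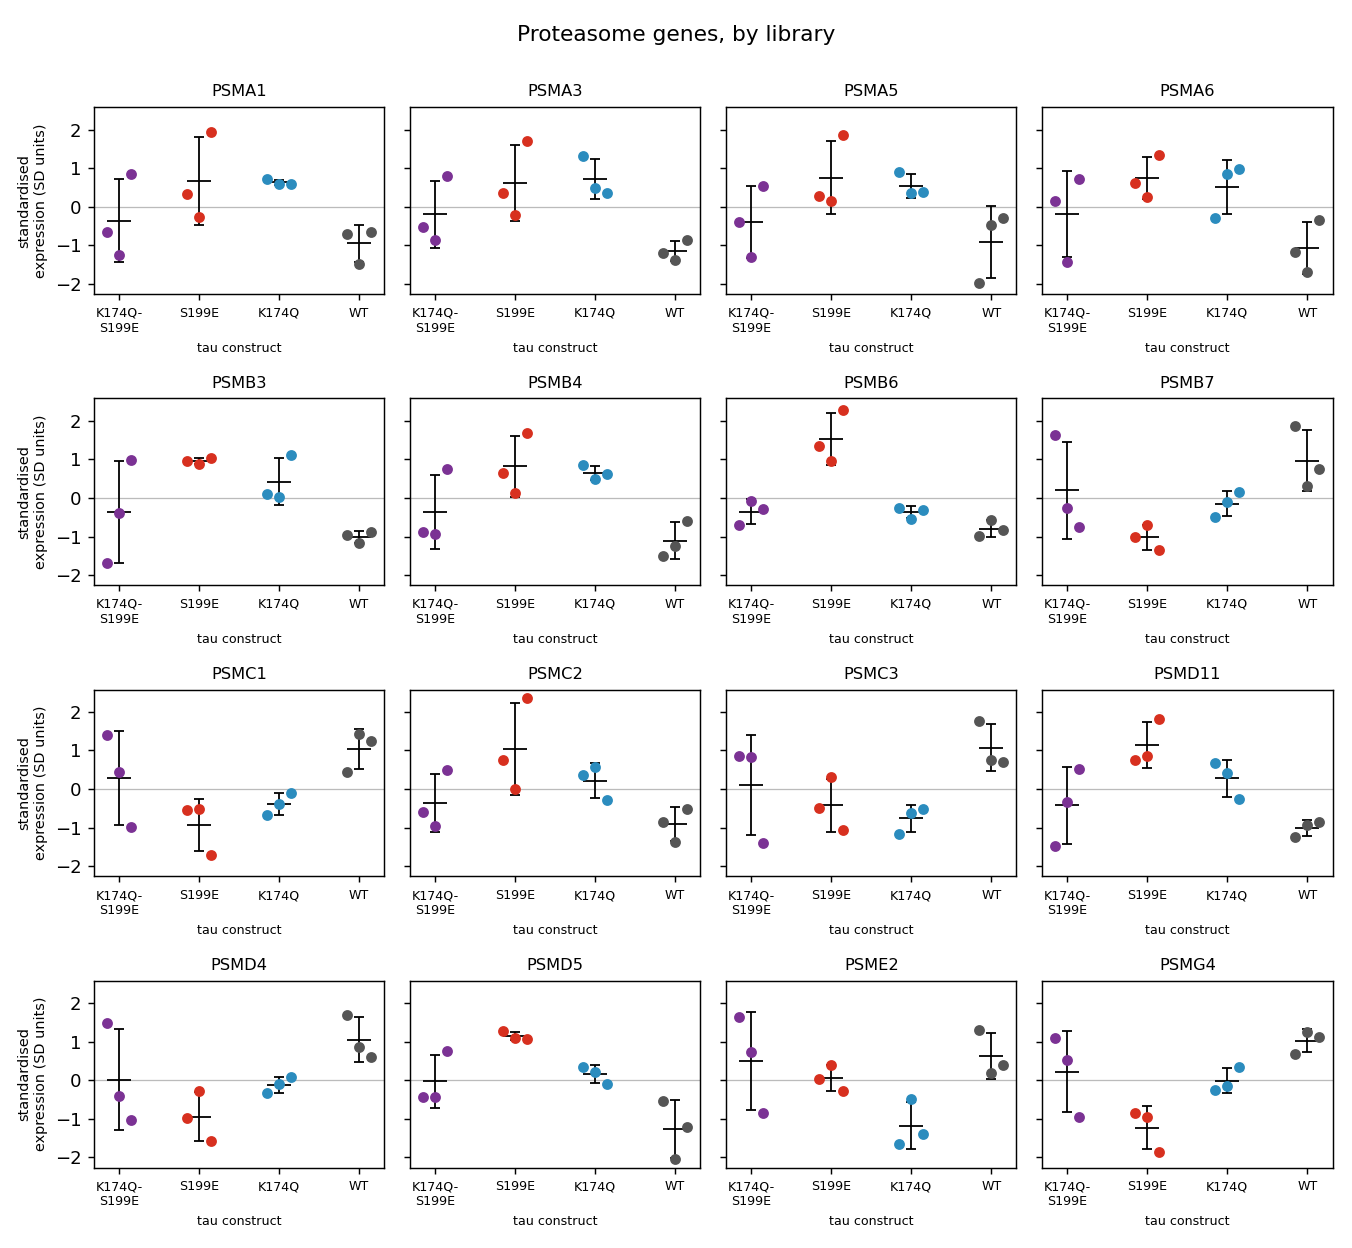
Standardised expression (y axis, SD units) of the 16 proteasome genes in each library (points), by tau construct (x axis); horizontal lines are group means and bars SD of 3 libraries. The Tau-S199E libraries of PSMB6 lie between 0.95 and 2.28, above all others, and those of PSMB7 between -1.36 and -0.69, below the Tau-WT libraries.

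Of the 6 E1 and E2 enzymes 5 rose with Tau-S199E, UBA1, UBE2A, UBE2B, UBE2R2 and UBE2S, and UBE2J2 fell. All 6 passed the test, where 90.0% of all genes did, 48.3% higher and 41.8% lower. The median difference was 1.94 SD units. UBA1 encodes the main E1, which activates ubiquitin for most E2 enzymes of the cell. UBA1 (chrX:47190861-47215128) was at -0.24, -0.90 and -0.20 SD units in the Tau-K174Q-S199E libraries, 0.91, 0.35 and 2.51 in the Tau-S199E libraries, 0.20, 0.069 and -0.17 in the Tau-K174Q libraries and -0.77, -1.45 and -0.30 in the Tau-WT libraries. UBA1 was above 0 in every Tau-S199E library and below 0 in every Tau-K174Q-S199E and Tau-WT library, and library 12 was far above libraries 10 and 11. It rose by 2.09 ± 0.54 SD units (SE, adjusted p = 0.0128).

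UBE2A and UBE2B are near-identical E2 enzymes, the human counterparts of yeast Rad6, and act in the tolerance of DNA damage and in the ubiquitination of histone H2B. UBE2B (chr5:134371179-134391992) was at -0.64, -0.68 and 0.62 SD units in the Tau-K174Q-S199E libraries, 0.60, 0.61 and 1.97 in the Tau-S199E libraries, 0.65, 0.37 and 0.098 in the Tau-K174Q libraries and -1.27, -0.84 and -1.50 in the Tau-WT libraries. The Tau-S199E, Tau-K174Q and Tau-K174Q-S199E libraries of UBE2B all lay above its Tau-WT libraries. UBE2B rose by 2.26 ± 0.48 SD units (SE, adjusted p = 0.01), and its log2 fold change in the authors' deposited table was -1.96. UBE2A rose by 1.78 ± 0.61 SD units (SE, adjusted p = 0.0259), a call lost without Tau-S199E library 10 or 12 and without Tau-WT library 2 or 3. Its 3′ end overlaps that of NKRF on the opposite strand, which rose by 1.46 SD units.

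UBE2R2, an E2 that works with cullin ligases, also rose. UBE2R2 (chr9:33817567-33920404) was at -1.23, 0.37 and 0.34 SD units in the Tau-K174Q-S199E libraries, 0.54, 1.18 and 1.66 in the Tau-S199E libraries, -0.16, 0.61 and -0.025 in the Tau-K174Q libraries and -0.51, -1.76 and -1.02 in the Tau-WT libraries. Its Tau-S199E libraries lay above those of Tau-K174Q-S199E and of Tau-WT. The rise was 2.23 ± 0.53 SD units (SE, adjusted p = 0.0109). UBE2S, the E2 that extends chains for the anaphase-promoting complex, rose by 1.73 ± 0.62 SD units (SE, adjusted p = 0.031), although Tau-WT library 1, at 0.79, lay within the range of its Tau-S199E libraries, and the call was lost without Tau-S199E library 11 or 12 and without Tau-WT library 2 or 3. UBE2S has 2 processed pseudogenes named after it. UBE2J2 is anchored in the membrane of the endoplasmic reticulum, where it serves the degradation of misfolded proteins. UBE2J2 (chr1:1253909-1273885) was at 1.05, 0.097 and -0.41 SD units in the Tau-K174Q-S199E libraries, -1.19, -0.26 and -2.08 in the Tau-S199E libraries, -0.66, 0.051 and 0.28 in the Tau-K174Q libraries and 1.03, 0.79 and 1.29 in the Tau-WT libraries. All 3 Tau-S199E libraries of UBE2J2 were below 0 and all 3 Tau-WT libraries above it. UBE2J2 fell by 2.22 ± 0.53 SD units (SE, adjusted p = 0.0108).

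The 18 ligase genes divided, with 6 rising, CUL4B, FBXL4, FBXO22, FBXW2, RNF114 and RNF5, and 8 falling, among them FBXO17, FBXW5, RNF168, RNF220, TRIM11, TRIM56 and UBR7. The 14 called are 77.8% of the class, where 90.0% of all genes were called, 48.3% higher and 41.8% lower, so that the table as a whole moved in both directions too. The median difference was -1.33 SD units, and 4 genes missed the threshold. The 14 calls became 9 without library 12 and 9 without Tau-WT library 2, where 49.7% and 63.0% of all genes were called.

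Among the 7 F-box genes, whose products hold substrates in cullin ligases, 3 rose and 2 fell. FBXO22, known for targeting histone demethylases, rose. FBXO22 (chr15:75903859-75942510) was at -0.74, 0.32 and -0.24 SD units in the Tau-K174Q-S199E libraries, 0.55, 0.65 and 2.40 in the Tau-S199E libraries, 0.23, 0.28 and -0.31 in the Tau-K174Q libraries and -0.65, -1.08 and -1.41 in the Tau-WT libraries. The Tau-S199E libraries were its highest 3. FBXO22 rose by 2.24 ± 0.52 SD units (SE, adjusted p = 0.0104), and its 3′ end overlaps NRG4 on the opposite strand, a gene that is not in the table. FBXL4, a protein of the outer mitochondrial membrane that restrains the removal of mitochondria, was nearly as high with Tau-K174Q as with Tau-S199E. FBXL4 (chr6:98868538-98948006) stood at -1.11, -1.16 and 0.60 SD units in the Tau-K174Q-S199E libraries, 0.45, 0.69 and 1.13 in the Tau-S199E libraries, 1.57, 0.26 and 0.37 in the Tau-K174Q libraries and -0.79, -1.64 and -0.37 in the Tau-WT libraries. FBXL4 rose by 1.69 ± 0.59 SD units (SE, adjusted p = 0.0275) with Tau-S199E, and the call was lost in 4 of 12 fits without 1 library, those without Tau-S199E library 11 or 12 or without Tau-WT library 1 or 2. Its log2 fold change in the authors' deposited table was -2.28. FBXW2 rose by 2.08 ± 0.54 SD units (SE, adjusted p = 0.013).

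FBXW5, an F-box protein that joins CUL4 ligases through DDB1, fell. FBXW5 (chr9:136940435-136944696) was at 1.50, 0.48 and -0.20 SD units in the Tau-K174Q-S199E libraries, -0.95, -0.79 and -2.04 in the Tau-S199E libraries, -0.55, -0.14 and 0.10 in the Tau-K174Q libraries and 0.76, 1.25 and 0.56 in the Tau-WT libraries. Its Tau-S199E libraries were the lowest 3, and library 12 was the lowest of these. FBXW5 fell by 2.12 ± 0.49 SD units (SE, adjusted p = 0.0104). FBXO17 fell by 2.06 ± 0.56 SD units (SE, adjusted p = 0.0144). FBXO45, a synaptic F-box protein, was at 1.33 ± 0.59 SD units (SE, adjusted p = 0.0583) and FBXO46 at 1.31 ± 0.66 SD units (SE, adjusted p = 0.0861), short of the threshold. CUL4B, the scaffold on which DDB1-based ligases are built, rose by 1.86 ± 0.62 SD units (SE, adjusted p = 0.0245), with the call lost without Tau-S199E library 11 or 12, without Tau-WT library 2 or 3 and with ranks over the libraries.

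Of the 5 RING finger genes of the RNF series, RNF114 and RNF5 rose, RNF168 and RNF220 fell and RNF181 missed the threshold. RNF168 ubiquitinates histones around DNA double-strand breaks. RNF168 (chr3:196468783-196503768) was at 1.15, 0.046 and 0.17 SD units in the Tau-K174Q-S199E libraries, -0.67, -0.68 and -0.65 in the Tau-S199E libraries, -0.89, -1.44 and -0.55 in the Tau-K174Q libraries and 1.97, 0.57 and 0.98 in the Tau-WT libraries. The Tau-S199E libraries of RNF168 were close together and its Tau-K174Q libraries were on average lower still, and neither overlapped Tau-WT. RNF168 fell by 1.84 ± 0.43 SD units (SE, adjusted p = 0.0104) with Tau-S199E. RNF114 (chr20:49936336-49953892) was measured at -0.71, -0.66 and -0.82 SD units in the Tau-K174Q-S199E libraries, 0.61, 2.10 and 1.54 in the Tau-S199E libraries, 0.24, -0.62 and -0.13 in the Tau-K174Q libraries and -0.073, -1.34 and -0.14 in the Tau-WT libraries. The Tau-S199E libraries of RNF114 were its highest 3 and those of Tau-K174Q-S199E were close together, within the range of Tau-WT. RNF114 rose by 1.93 ± 0.46 SD units (SE, adjusted p = 0.0108).

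RNF5 is a ligase of the endoplasmic reticulum membrane. RNF5 (chr6:32178354-32180793) was at -0.38, -1.15 and 0.25 SD units in the Tau-K174Q-S199E libraries, 0.20, 0.29 and 2.43 in the Tau-S199E libraries, -0.27, 0.74 and 0.56 in the Tau-K174Q libraries and -0.85, -1.19 and -0.62 in the Tau-WT libraries. Library 12 of RNF5 stood more than 2 SD units above the other Tau-S199E libraries, and without it the difference was 1.13. RNF5 rose by 1.86 ± 0.64 SD units (SE, adjusted p = 0.0268), and the call was lost without library 12, Tau-WT library 1 or Tau-WT library 2. Its log2 fold change in the authors' deposited table, -2.45, was the largest in size of the 47 genes, and 1 processed pseudogene is named after it. RNF220 fell by 2.22 ± 0.53 SD units (SE, adjusted p = 0.0109), and RNF181 was at -1.41 ± 0.60 SD units (SE, adjusted p = 0.0518).

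Both TRIM genes and UBR7 fell. TRIM11 has been described as a ligase that aids the clearance of misfolded proteins, tau among them. TRIM11 (chr1:228393673-228406840) was at 0.68, 0.18 and -0.24 SD units in the Tau-K174Q-S199E libraries, -1.41, -0.65 and -1.90 in the Tau-S199E libraries, -0.32, 0.087 and 0.22 in the Tau-K174Q libraries and 1.72, 0.88 and 0.74 in the Tau-WT libraries. Every Tau-S199E library of TRIM11 was below those of the other constructs and every Tau-WT library above them. TRIM11 fell by 2.43 ± 0.40 SD units (SE, adjusted p = 0.00968), the largest difference from Tau-WT among the 47 genes. TRIM56, known from antiviral innate immunity, fell by 1.70 ± 0.63 SD units (SE, adjusted p = 0.0335). UBR7 fell by 1.86 ± 0.59 SD units (SE, adjusted p = 0.0214). The call of TRIM56 was lost without any 1 of the Tau-S199E libraries and without Tau-WT library 2 or 3, and that of UBR7 without library 12 or Tau-WT library 2. UBE3C, a HECT ligase that binds the proteasome, was at -1.25 ± 0.54 SD units (SE, adjusted p = 0.0521), short of the threshold.

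The deubiquitinases fell with Tau-S199E except for USP38. Of 7 genes 6 fell, OTUD5, USP10, USP11, USP14, USP36 and USP48, where 41.8% of all genes fell, with a class median of -2.05 SD units, and the libraries of Tau-S199E and Tau-WT did not overlap in any of the 7, as in 94.2% of all genes. The calls numbered 5 without library 12 and 5 without Tau-WT library 2, where 49.7% and 63.0% of all genes were called. USP14 is a deubiquitinase that sits on the proteasome and trims chains from its substrates. USP14 (chr18:158383-214629) was at 0.26, -0.0066 and -0.46 SD units in the Tau-K174Q-S199E libraries, -0.78, -0.48 and -1.52 in the Tau-S199E libraries, -0.046, -0.60 and -0.52 in the Tau-K174Q libraries and 0.70, 2.23 and 1.22 in the Tau-WT libraries. Its Tau-WT libraries were the highest 3 and all other groups lay below them. USP14 fell by 2.31 ± 0.43 SD units (SE, adjusted p = 0.00968). Its 3′ end overlaps THOC1 on the opposite strand, a gene that is not in the table.

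OTUD5 is a deubiquitinase of the ovarian tumour family known from innate immune signalling. OTUD5 (chrX:48922028-48958386) was at 1.30, 0.35 and -0.61 SD units in the Tau-K174Q-S199E libraries, -1.29, -0.67 and -1.69 in the Tau-S199E libraries, -0.30, -0.47 and 0.22 in the Tau-K174Q libraries and 0.77, 1.17 and 1.22 in the Tau-WT libraries. The 3 Tau-S199E libraries were the lowest of OTUD5. It fell by 2.28 ± 0.48 SD units (SE, adjusted p = 0.01). USP11, on the X chromosome like UBA1 and OTUD5, has been described as a deubiquitinase of tau. USP11 (chrX:47232690-47248328) stood at 1.37, 0.13 and -0.62 SD units in the Tau-K174Q-S199E libraries, -0.98, -0.96 and -1.76 in the Tau-S199E libraries, -0.35, -0.17 and 0.36 in the Tau-K174Q libraries and 0.44, 1.46 and 1.07 in the Tau-WT libraries. USP11 was lowest in the 3 Tau-S199E libraries. USP11 fell by 2.22 ± 0.52 SD units (SE, adjusted p = 0.0104).

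USP38 was the deubiquitinase that rose. USP38 (chr4:143184917-143223830) was at -0.30, -0.52 and 0.13 SD units in the Tau-K174Q-S199E libraries, 1.17, 1.28 and 1.09 in the Tau-S199E libraries, 1.09, -0.13 and -0.17 in the Tau-K174Q libraries and -1.93, -0.95 and -0.76 in the Tau-WT libraries. Its Tau-S199E libraries were close together and above every library of the other constructs. USP38 rose by 2.39 ± 0.41 SD units (SE, adjusted p = 0.00968). USP10, a deubiquitinase of p53, fell by 2.05 ± 0.59 SD units (SE, adjusted p = 0.0164). USP36, a nucleolar enzyme, fell by 1.85 ± 0.61 SD units (SE, adjusted p = 0.0234), and USP48 fell by 2.04 ± 0.59 SD units (SE, adjusted p = 0.0169). Without library 12 the calls of USP36 and USP48 were lost, without Tau-WT library 2 those of USP10 and USP36, and without Tau-WT library 3 that of USP36.

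**Figure D4:**
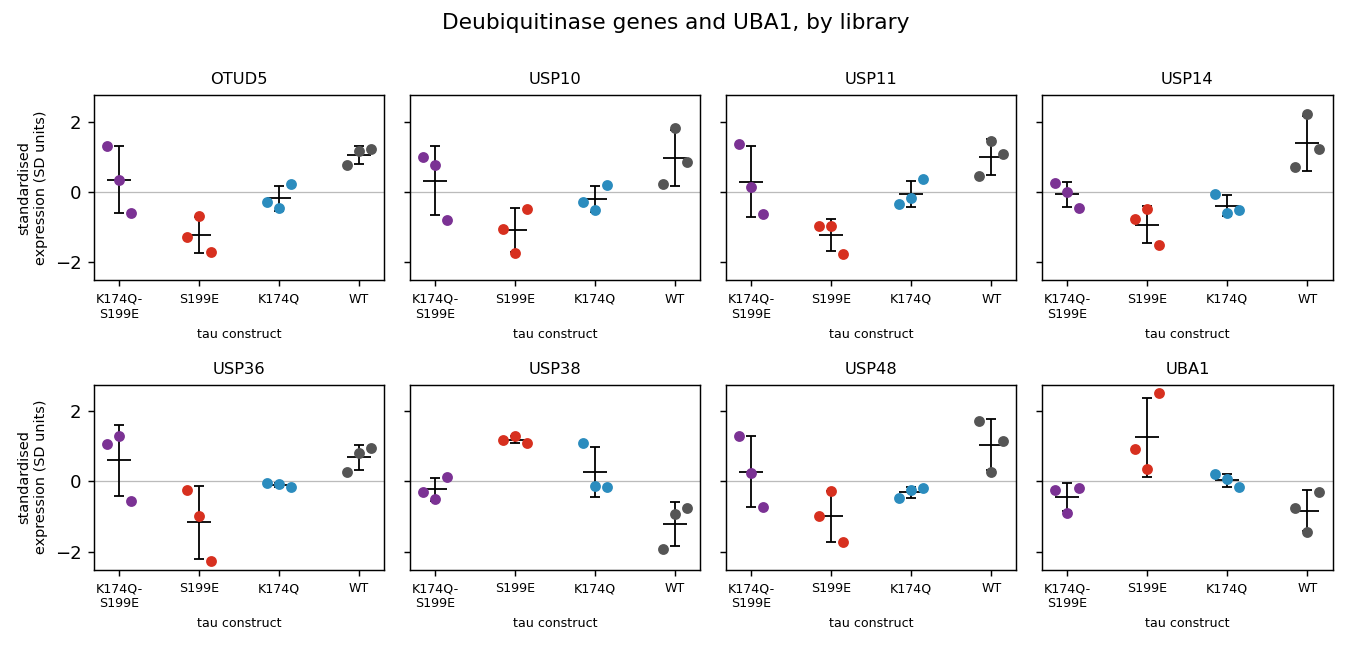
Standardised expression (y axis, SD units) of the 7 deubiquitinase genes and of UBA1, the E1 gene, in each library (points), by tau construct (x axis); horizontal lines are group means and bars SD of 3 libraries. USP38 and UBA1 are highest with Tau-S199E and the other 6 genes are lowest with it.

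Of a list of 354 other genes of the ubiquitin pathway, drawn up with earlier results of these data known, 43 are in the table, and 24 rose and 17 fell with Tau-S199E against Tau-WT, where 48.3% of all genes rose and 41.8% fell. VPS18 and DCAF8 missed the threshold. Their median difference was 1.66 SD units, against 1.41 over all genes. The table holds 14 adaptors and regulators of cullin ligases, of which 12 rose (48.3% of all genes did), among them the shared subunits SKP1, DDB1 and ELOC, the F-box protein SKP2 at 2.16 ± 0.48 SD units (SE), and COPS3, COPS5, COPS7A, COPS7B and COPS9 of the COP9 signalosome, which removes NEDD8 from cullins. COPS9 rose by 2.37 ± 0.46. SPOP, a substrate adaptor of CUL3, fell by 2.05.

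RPS27A, which encodes ubiquitin fused to a ribosomal protein, fell, with a difference of -1.99 SD units. SUMO3, a ubiquitin-like modifier, was at -2.30 ± 0.49 SD units and fell too, whereas FAU, a fusion of a ubiquitin-like and a ribosomal protein, rose by 1.71. HERC5, the ligase of the ubiquitin-like ISG15, fell with a difference of -2.42 ± 0.39, and RBCK1 of the linear chain assembly complex fell by 2.15. ATG10, an E2-like enzyme of autophagy, was at -2.45 ± 0.38, the smallest p of the list. TOPORS, a ligase for ubiquitin and SUMO, stood at -2.20 ± 0.44 and DTX2, a ligase of Notch signalling, at -2.21 ± 0.49, and both fell. DERL1 of the retrotranslocation channel of the endoplasmic reticulum rose by 2.15 ± 0.50, and MARCHF5, a mitochondrial ligase, rose by 2.07 ± 0.49. The 10 genes of the list with the smallest p, of which 9 are given here with an SE, had adjusted p-values by limma of 0.00968 to 0.0108.

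With Tau-K174Q against Tau-WT, none of the 47 genes passed the limma test, and 0% of all genes did. The smallest adjusted p was 0.066. An unadjusted p under 0.05 was found in 22 of the 47 genes, against 51.9% of all genes, and limma with moderated variances called 27 of the 47 and 59.9% of all. Libraries of Tau-K174Q and Tau-WT did not overlap in 42 of 47 genes (89.4%, against 80.7% of all). By class these were all 16 proteasome genes, all 7 deubiquitinases, 14 of 18 ligases (77.8%) and 5 of 6 E1 and E2 enzymes. Without Tau-K174Q-S199E library 18, 19 of the 47 were called (40.4%, against 40.3% of all genes), and without library 16 of that construct 1 was (2.13%, against 2.86% of all). RNF168 had the smallest p of the 47 genes, at -2.13 ± 0.43 SD units (SE, adjusted p = 0.066) for Tau-K174Q and -1.84 ± 0.43 SD units (SE, adjusted p = 0.0104) for Tau-S199E. Both comparisons share the Tau-WT libraries. USP14 was at -1.77 ± 0.43 SD units (SE, adjusted p = 0.066), USP38 at 1.47 ± 0.41 SD units (SE, adjusted p = 0.066), UBE2B at 1.58 ± 0.48 SD units (SE, adjusted p = 0.066) and PSMD5 at 1.42 ± 0.43 SD units (SE, adjusted p = 0.066). PSMB6, by contrast, was at 0.42 ± 0.33 SD units (SE, adjusted p = 0.249), and RNF114 at 0.35 ± 0.46 SD units (SE, adjusted p = 0.479).

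Set directly against Tau-S199E, Tau-K174Q gave no call among the 47 genes and 0.0597% of all genes by the limma test, 4 of the 47 had an unadjusted p under 0.05 (16.1% of all), and moderated variances called none. PSMB6 had the smallest p, at -1.90 ± 0.33 SD units (SE, adjusted p = 0.109), with all 3 Tau-K174Q libraries below all 3 Tau-S199E libraries. RNF114 followed at -1.59 ± 0.46 SD units (SE, adjusted p = 0.238). The alpha ring genes were at -0.045 (PSMA1), 0.11 (PSMA3), -0.21 (PSMA5) and -0.23 SD units (PSMA6), each with an SE of 0.59 to 0.67, which does not show that the constructs act alike on them.

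The mean of the double construct lay between those of Tau-S199E and Tau-WT in 44 of the 47 genes (93.6%, against 91.8% of all). Its place leaned on single libraries. Without Tau-K174Q-S199E library 18, 12 of the 47 differences of the double construct from Tau-WT changed sign, and without Tau-WT library 1, 5 did. Changes of sign were not counted over all genes. With Tau-K174Q-S199E against Tau-WT, none of the 47 genes and 0% of all genes passed the limma test, with moderated variances neither, and 3 of the 47 had an unadjusted p under 0.05 (7.58% of all): USP14 at -1.45 ± 0.43 SD units (SE, adjusted p = 0.533), PSMD5 at 1.23 ± 0.43 SD units (SE, adjusted p = 0.533) and USP38 at 0.98 ± 0.41 SD units (SE, adjusted p = 0.533). Libraries did not overlap in 5 of 47 genes, against 11.6% of all. These p-values do not show that the construct left the genes at the level of Tau-WT. With Tau-K174Q-S199E against Tau-S199E, none of the 47 and 0.119% of all genes passed, and 26 of the 47 had an unadjusted p under 0.05 (56.4% of all). With moderated variances 34 of the 47 and 68.8% of all genes were called, and without library 18 the ordinary test called 38 (80.9%, against 78.5% of all), and without Tau-S199E library 11 it called 1 (2.13%, against 0.358% of all). UBE3C, chosen after its values were seen, had the largest difference, 2.23 ± 0.54 SD units (SE, adjusted p = 0.0644). UBE3C was at 1.71, 1.50 and 0.11 SD units in the Tau-K174Q-S199E libraries, -1.41, -0.54 and -1.43 in the Tau-S199E libraries, -0.14, -0.13 and -0.04 in the Tau-K174Q libraries and -0.79, 0.85 and 0.32 in the Tau-WT libraries. Its Tau-K174Q-S199E libraries lay above all Tau-S199E and Tau-K174Q libraries but overlapped Tau-WT. RNF114 was at -2.14 ± 0.46 SD units (SE, adjusted p = 0.0644) and PSMB6 at -1.89 ± 0.33 SD units (SE, adjusted p = 0.0644).

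With Tau-K174Q-S199E against Tau-K174Q, none of the 47 genes and 0% of all passed, 4 of the 47 had an unadjusted p under 0.05 (8.23% of all), and moderated variances called none of the 47. The ordinary test called 3 without library 18 (6.38%, against 8.47% of all) and none without any other single library. In the interaction of both substitutions, the difference of the double construct from Tau-WT minus the sum of those of the single ones, all 47 genes passed the limma test, where 97.0% of all genes did and the sign is that of the deposited log2 fold change. RNF168 had the largest value, at 3.25 ± 0.60 SD units (SE, adjusted p = 0.0182): the single constructs were at -1.84 and -2.13 SD units and the double construct at -0.72. The others lay between -2.97 and 2.96.

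The order of the 4 group means, which the selection of the table may shape, took 2 main forms. In 17 of the 47 genes (36.2%, against 38.2% of all) it was Tau-S199E, Tau-K174Q, Tau-K174Q-S199E and Tau-WT from high to low, and in 18 (38.3%, against 35.5%) it was the reverse. In the first order were 8 of the 10 proteasome genes that rose, and in the reverse order were the 6 deubiquitinases that fell. Most genes of the table did likewise. Of the 886 genes with a higher mean in Tau-S199E than in Tau-WT, 640 were in the first order. Of the 790 with a lower mean, 595 were in the reverse order. PSMB6 departed from the first order, with Tau-K174Q-S199E at -0.36 ± 0.32 and Tau-K174Q at -0.37 ± 0.15 SD units (SD, n = 3 each), which differ by less than their spread. PSMA3, UBE2A, FBXO45 and FBXO46 were on average highest with Tau-K174Q, and PSMC3, PSME2, RNF168 and RNF181 lowest with it, in each case with neighbouring means of Tau-K174Q and Tau-S199E that did not differ by the limma test. In the authors' deposited table the clusters 1 to 4 held 17, 6, 10 and 14 of the 47 genes, and 535, 255, 353 and 533 of all 1676 genes. Of the 7 deubiquitinases 5 were in cluster 1. The absolute log2 fold change in the authors' deposited table had a median of 1.17 in the 47 genes (0.59 to 2.45) and 1.36 in all genes. Across the 47 genes, 14 have a processed pseudogene of their name or share 3′ exon sequence with another gene. Of the 33 others, 28 were called with Tau-S199E against Tau-WT, where 90.0% of all genes were.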

How the data were processed

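Per the labels' protocols, 4 tau constructs were compared in SH-SY5Y cells with 3 libraries each, and 400 ng of RNA went into every 3′ end library. STAR 2.5.3a, RSEM 1.2.31, DESeq2 and GRCh38 are named in the submitters' processing notes without saying what each was used for. How reads were transformed, filtered, assigned to strands and clustered is not given in the sources used here. Library columns of the deposited table hold a score, standardised by the authors over the 12 libraries of each gene, as the values show (mean 0, SD 1, lowest -2.58, highest 3.06). The table also gives log2 fold changes, and deposited adjusted p-values, per the file headers, which do not name the contrast. Standardising removed level, depth and fold size, so depth is unknown and no count model, pseudocount or filter on low values can be applied.

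Groups come from the labels. The library columns were mapped to constructs by name, and no column of per-sample values was left unused. Each gene was fitted with limma 3.58.1 (R 4.3.3), using 4 construct means, all 12 libraries and the gene's ordinary residual variance, two-sided, with Benjamini-Hochberg adjustment over 1676 genes and a threshold of 0.05. The fit was tested on simulated independent genes, a minority of them shifted in Tau-S199E only. That setting is unlike this table of selected genes, so it checks the code and not the calls made here. Alternatives were moderated variances, ranks over the libraries, fits on the libraries compared only, leaving out each library, and leaving out genes that may share reads (a processed pseudogene of the gene's name, or exon overlap in the last 500 bases). A fit without libraries 12 and 18 was chosen after seeing the data. All 47 gene IDs matched GENCODE release 29. Described in full are, in each class, the 3 genes with the smallest p in Tau-S199E against Tau-WT, the 1 with the smallest p in each of Tau-K174Q against Tau-WT, Tau-K174Q-S199E against Tau-WT and Tau-K174Q against Tau-S199E, and the 2 with the largest deposited log2 fold change in size. Of the genes counted, 2 are not reported by name here. Others are said to have been chosen after their values were seen. The genes, lists and tests were chosen with earlier results of these data known.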

Additional observations from a re-analysis of the deposited data

Results flagged for a closer look

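In the 20 genes described in full under the rule, the effect of adding S199E differed between constructs with and without K174Q, by the limma test of the interaction (adjusted p from 0.0182 to 0.0294). The value is Tau-K174Q-S199E minus Tau-K174Q, less the quantity Tau-S199E minus Tau-WT, in SD units. Among these genes it was negative in 12: -2.97 for FBXL4, -2.88 for USP38, -2.87 for UBE2B, -2.86 for PSMD11, -2.62 for RNF5, -2.61 for PSMA5, -2.59 for PSMD5, -2.57 for UBA1, -2.54 for UBE2R2, -2.53 for FBXO22, -2.49 for RNF114 and -2.32 for PSMB6. It was positive in 8: 3.25 for RNF168, 2.90 for FBXW5, 2.80 for OTUD5, 2.64 for TRIM11, 2.63 for USP14, 2.58 for UBE2J2, 2.57 for USP11 and 2.49 for PSMG4. In each gene the sign is opposite to that of Tau-S199E minus Tau-WT, and the table may have been selected on this contrast, in which 97.0% of all its genes pass the test, so these values do not set the 20 genes apart.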

How the results depend on the processing

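Of the counts of called genes among the 47, that of Tau-S199E against Tau-WT (41) was within 1.5 times under moderated variances, ranks, the libraries compared only and without libraries 12 and 18. That of the interaction (47), which takes all 4 constructs, was so under moderated variances, ranks and without libraries 12 and 18. Leaving out 1 library gave 22 to 46 for Tau-S199E against Tau-WT, where 49.7% to 93.8% of all genes were called. The range was 4 to 15 for its proteasome genes and 9 to 18 for its ligases. No sign of a Tau-S199E difference from Tau-WT changed in any setting, whereas up to 12 of the 47 signs of Tau-K174Q-S199E against Tau-WT did. In 44 of the 47 genes the Tau-S199E and Tau-WT libraries did not overlap, so leaving out libraries could not change the sign there. The selection of the table may also fix these signs, and changes of sign were not counted over all genes. For Tau-K174Q against Tau-WT the count of 0 became 27 with moderated variances (59.9% of all genes) and 24 with only the libraries compared (48.9% of all). It became 29 without libraries 12 and 18 (58.5% of all), and 0 to 19 leaving out 1 library (up to 40.3% of all). For Tau-K174Q-S199E against Tau-S199E the 0 became 34 with moderated variances (68.8% of all) and 14 with ranks (24.5% of all). It became 19 without libraries 12 and 18 (43.6% of all), and 0 to 38 leaving out 1 library (up to 78.5% of all). For Tau-K174Q-S199E against Tau-K174Q it became 12 without libraries 12 and 18 (26.9% of all) and 0 to 3 leaving out 1 library (up to 8.47% of all). Counts for Tau-K174Q-S199E against Tau-WT and for Tau-K174Q against Tau-S199E stayed at 0 in all settings run. Without the 14 genes that may share reads, 28 of 33 were called for Tau-S199E against Tau-WT (90.0% of all genes). Of the 20 genes described in full under the rule, PSMA5, RNF5 and FBXL4 lost their call in at least 1 fit without a single library. The cause of these changes was not tested.

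No paired analysis was possible because the table's columns carry library numbers and not the replicate numbers of the labels. Scaling to unit SD removes fold size, depth is unknown, and the table holds selected genes only, which limits what any count above can show.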
